A study of Mus musculus with 8 samples.

Results

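Il6 (ENSMUSG00000025746.12) encodes interleukin-6, an inflammatory cytokine, and is described here through the chromatin loops called at its promoter and in its surroundings. The gene lies on the forward strand at chr5:30218112-30224979 (GRCm39, the assembly behind mm39), and its canonical start site falls in the 5 kb bin chr5:30215001-30220000. A promoter loop is a listed pair of 5 kb bins of which 1 is this start-site bin. By this rule 18 distinct promoter loops were found among 214313 distinct loops in all. A further 91 distinct loops had both bins within 200 kb of the start-site bin and did not use it.

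The loops come from H3K27ac HiChIP, which enriches ligation products of chromatin in contact for the acetylated histone H3K27ac, found at enhancers and promoters in use. The cells were HPC-7, a haematopoietic progenitor line of the mouse, and carried the short (p30) or the full-length (p42) isoform of the transcription factor CEBPA. Both lines were either untreated (UT) or given LPS, a bacterial agonist of TLR4, at 100 ng/mL for 2 h, which gives the groups p30 UT and p30 LPS, and p42 UT and p42 LPS. Each group has 2 replicates, 8 libraries in all, but a single pooled loop list per group was used, so that no spread between replicates could be measured. The methods describe HPC-7 lines with retroviral fusions of each isoform to ERT2, which enter the nucleus after 4-hydroxytamoxifen. Lines with unfused constructs are described separately. The HiChIP methods do not name the construct. A figure legend gives HiChIP interactions as those of p42 HPC-7, the name that the methods use for the fusion line. Low endogenous CEBPA is described for HPC-7 itself and so applies to all groups. The labels name no group without an added isoform and give no hydroxytamoxifen treatment of these libraries.

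In myeloid cells, TLR4 signals through NF-kB and AP-1 factors, and the Il6 promoter is a textbook target of both, together with C/EBP proteins. Interleukin-6 binds its receptor IL6RA and the shared subunit gp130 (Il6st), and JAK kinases then activate STAT3, which also switches on the inhibitor Socs3. The gene is silent or weak in many resting cells and is induced within hours of LPS. Regulatory elements far from a gene can contact its promoter through loops, and H3K27ac HiChIP sees such contacts where the bins are marked.

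The promoter sequence is shown because it is the anchor of all 18 promoter loops and because the factors named above are the subject of the study. The 250 bases before the start site (chr5:30217862-30218111, GRCm39, forward strand) are the same as in the RefSeq promoter table, which is of GRCm38.p6. Capitals mark matches to 3 of the 5 motifs searched on both strands.
Il6 promoter: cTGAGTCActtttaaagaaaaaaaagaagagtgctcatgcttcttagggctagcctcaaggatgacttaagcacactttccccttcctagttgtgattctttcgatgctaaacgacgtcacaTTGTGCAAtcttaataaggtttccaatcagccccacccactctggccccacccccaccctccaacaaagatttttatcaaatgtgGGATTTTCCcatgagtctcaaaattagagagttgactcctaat
From the left, these are an AP-1 match (TGANTCA) whose first base is at -249 from the start site, a C/EBP match (TTNNGNAA) whose first base is at -128 and an NF-kB match (GGANNTTCC) whose first base is at -43. None of the 3 overlaps another. Of the 32851 promoters of that table, 6.75% held the AP-1 motif in the same window, 36.8% the C/EBP motif and 3.59% the NF-kB motif. The CRE motif (TGACGTCA), present in 1.55% of promoters, and the motif of C/EBP paired with AP-1 or ATF (TGATGNAA), present in 3.45%, were not in this window. A match describes the letters and not the binding of a factor.

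Il6 had 2 promoter loops in untreated p30 cells and 9 after LPS, and in p42 cells it had 6 untreated and 12 after LPS. Within each isoform the LPS list thus held more loops than the UT list, and within each treatment the p42 list held more than the p30 list. All 18 distinct pairs reached upstream of the gene, towards Dnajb6, and 0 reached downstream. Of the 18 pairs, 10 were in 1 list, 6 in 2 lists, 1 in 3 lists and 1 in all 4 lists. The lists differ in length, with 80489, 94609, 158233 and 78591 loops in the order p30 UT and LPS, then p42 UT and LPS, which is the list order used below. When each list was shortened to the 78591 loops with the smallest q-values, Il6 kept 2, 4, 2 and 12 promoter loops. The difference between p42 UT and p30 UT was then 0, while p42 LPS still held the most. With pairs of adjacent bins merged the counts were 2, 5, 6 and 7, and the p42 LPS list then held 1 more than p42 UT. Compared with the other protein-coding genes that had a promoter loop in the same list, Il6 had more loops than 27.6%, 82.6%, 54.2% and 93.7% of them, in list order.

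The loops were long and thin. The median distance between start-site bin and partner was 178, 170, 175 and 145 kb in list order, against 45, 35, 40 and 40 kb over all loops of each list. Contacts, the ligation products counted between both bins, were 11 and 12 for p30 UT, 8 to 11 for p30 LPS, 8 to 15 for p42 UT and 8 to 16 for p42 LPS. A typical loop of these lists had more contacts, with a median of 19 or 20 in each list. Relative to the contacts that the loop caller expected from distance and coverage, the Il6 loops had median ratios of 8.68, 6.16, 6.11 and 6.43. Such ratios follow from the listing itself, since a pair with so few expected contacts is listed only at a high ratio. Summed over all its promoter loops, Il6 had 23, 82, 63 and 136 contacts. Of the 9 loops of p30 LPS, 6 had the fewest contacts with which that pair could be listed, as did 0 of p30 UT, 2 of p42 UT and 3 of p42 LPS. One contact fewer would therefore have removed most loops of p30 LPS.

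**Figure D1:**
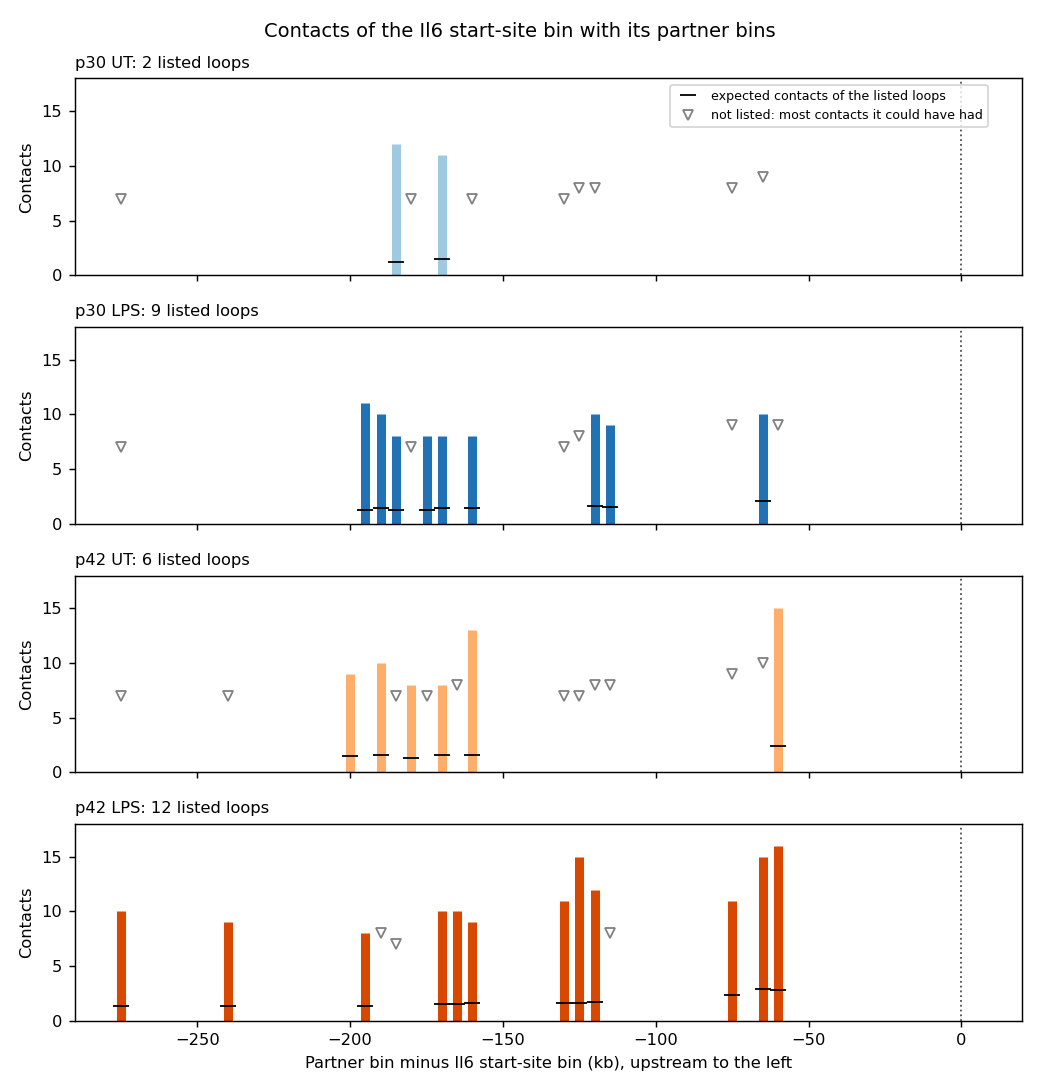
Contacts (vertical axis, ligation products) of the Il6 start-site bin with its 18 partner bins, against the distance of the partner in kb, in the 4 lists. Bars are listed loops, black dashes their expected contacts, and open triangles the most contacts that an unlisted pair could have had. The bars number 2, 9, 6 and 12 from top to bottom and reach 16 contacts in p42 LPS.

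The partners fell into 5 stretches. The farthest pair of stretches appeared only in the p42 LPS list. The -275 kb bin, which holds the start of Dnajb6, a gene for a heat-shock co-chaperone, had 10 contacts with the Il6 bin. The -240 kb bin, in an intron of Dnajb6, had 9. In the other lists the -275 kb pair could have held at most 7 contacts without being listed, a gap of 3.

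The stretch from -200 to -160 kb (chr5:30015001-30060000) runs from the 3′ end of Dnajb6 over bins with no annotated gene, the processed pseudogene Gm1969 and the lncRNA Gm72204. It held 2, 6, 5 and 4 loops in list order, with 23, 53, 48 and 37 contacts. In lists of equal size it held 2, 2, 1 and 4 loops, so that its excess in p30 LPS over p42 LPS turned round. Its bin at -170 kb, with no annotated gene, was the partner found in every list as deposited, but in lists of equal size it was found in p30 UT and p42 LPS only. It had 11 contacts untreated and 8 after LPS in p30, and 8 untreated and 10 after LPS in p42. Between 1.42 and 1.55 contacts were expected for that pair. The -160 kb bin, where Gm72204 starts, had 13 contacts untreated and 9 after LPS in p42, and 8 after LPS and at most 7 untreated in p30. The p30 LPS loop of this bin was also lost in lists of equal size.

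The stretch from -130 to -115 kb (chr5:30085001-30105000) was looped to Il6 in both LPS lists and in neither UT list. It reaches into the 3′ part of Gm42450, a lncRNA on the reverse strand that overlaps Il6 (chr5:30091726-30245857). There were 2 loops with 19 contacts in p30 and 3 loops with 38 contacts in p42. The -125 kb bin, over an exon of Gm42450, gave the Il6 loop of p42 LPS with the smallest p-value, with 15 contacts against 1.66 expected (q = 1.52e-07). The same pair could have held at most 8 contacts in either p30 list and 7 in p42 UT. The -120 kb bin had 10 contacts in p30 and 12 in p42 after LPS, against at most 8 in either UT list.

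The stretch nearest to the gene, from -75 to -60 kb (chr5:30140001-30160000), also lies within Gm42450 and holds the transcript model Gm43386. In p30 it had 0 loops untreated and 1 with 10 contacts after LPS, and in p42 it had 1 with 15 contacts untreated and 3 with 42 contacts after LPS. The -60 kb bin was a partner in the p42 lists only, with 15 contacts untreated and 16 after LPS, and the pair could have held at most 9 in p30 LPS. The -65 kb bin was a partner in the LPS lists only, with 10 contacts in p30 and 15 in p42. That pair could have held at most 9 contacts in p30 UT and 10 in p42 UT, so that for p30 the gap between listed and unlisted is 1 contact. In lists of equal size the p30 LPS loop was lost, which left 0, 0, 1 and 3 loops in this stretch, while the loops from -130 to -115 kb were all kept.

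Where a pair was in both lists of a comparison, its contacts were compared with a two-sided exact binomial test against the share of modelled contacts, adjusted by the Benjamini-Hochberg method over all loops in both lists. The test compares pooled libraries and not conditions. None of the Il6 loops was called, with adjusted p from this exact test between 0.962 and 1. Over all loops tested, 5.09% were called between p42 UT and p30 UT, 1.59% between p42 LPS and p30 LPS, 2.2% between LPS and UT in p30 and 1.47% between LPS and UT in p42. The 5 Il6 loops in both LPS lists had 54 contacts in p42 and 47 in p30. This is a share of 53.5% for p42 (exact 95% interval 43.3% to 63.5%, counting error only), against 52.2% from the modelled contacts. The 3 loops in both p42 lists had 35 contacts after LPS and 36 untreated, and the 2 loops in both p30 lists had 16 and 23. Loops present on both sides thus did not differ detectably at this depth.

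The contacts of an unlisted pair are unknown but have an upper bound. Of the pairs listed in p42 LPS but not in p42 UT, 8 have a bound in p42 UT, and they held 93 contacts in p42 LPS against at most 63 in p42 UT. Of those listed in p42 LPS but not in p30 LPS, 5 have a bound, with 63 contacts against at most 40. In the other direction, 3 pairs listed in p30 LPS but not in p42 LPS held 27 contacts against at most 23, and 1 pair listed in p42 UT but not in p42 LPS held 10 against at most 8. Untreated, 2 pairs listed in p42 only held 21 contacts against at most 14, and 1 pair listed in p30 only held 12 against at most 7. In p30, 3 pairs listed after LPS only held 28 contacts against at most 24 untreated. Each pair was chosen because 1 list held it and the other did not, which fixes the direction, so the sums are a description. No single pair of this kind had an exact 95% interval of its share beyond the modelled share when the other list was set to its bound.

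H3K27ac read coverage of the Il6 start-site bin was 1550 reads untreated and 1958 after LPS in p30, and 2217 untreated and 2467 after LPS in p42. Divided by the mean coverage of peak bins in its list, it was 0.644, 0.874, 0.762 and 1.27. The bin held an H3K27ac peak in all 4 lists, and only in p42 LPS was it above the average peak bin. Of the start-site bins of protein-coding genes in the same list, 6.97%, 18.9%, 17.1% and 40.7% were lower, in list order. More cells with the mark and more mark per cell cannot be told apart in these pooled cells. In p42 cells relative coverage after LPS was 1.67-fold that of UT (log2 0.74), which ranked 14 of the 7427 protein-coding genes whose start-site bin was in both lists. In p30 cells it was 1.36-fold that of UT (log2 0.44, rank 373 of 7212). Ranks do not depend on the scaling. Past 1.5-fold higher after LPS were 0.7% of start-site bins in p42 and 1.83% in p30, so that Il6 was called in p42 and not in p30. The 2 responses were not tested against each other.

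Between isoforms, Il6 was higher in p42 in both treatments, and which treatment had the larger difference depended on the scale. Relative to the mean peak bin it was 1.46-fold higher in p42 than in p30 after LPS (log2 0.54, rank 138 of 6921) and 1.18-fold higher untreated (log2 0.24, rank 1873 of 7715). Neither ratio was past 1.5-fold, which 1.62% of start-site bins were after LPS and 3.6% untreated. The median log2 ratio over all genes was -0.11 after LPS and 0.06 untreated. Taken relative to that median, the p42 over p30 ratio after LPS was 1.58-fold, past the threshold. Scaling by modelled contacts instead shifts every gene by -0.33 in this comparison and by -0.32 in LPS over UT of p42. The p42 over p30 ratio of Il6 was then 1.15-fold after LPS and 1.35-fold untreated, the reverse order. Its LPS over UT ratio in p42 was then 1.34-fold, below the threshold, and in p30, where the shift was 0.21, it was 1.57-fold, so that the order of the isoforms was reversed here too. On all these scales Il6 coverage was higher after LPS than untreated and higher in p42 than in p30.

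**Figure D2:**
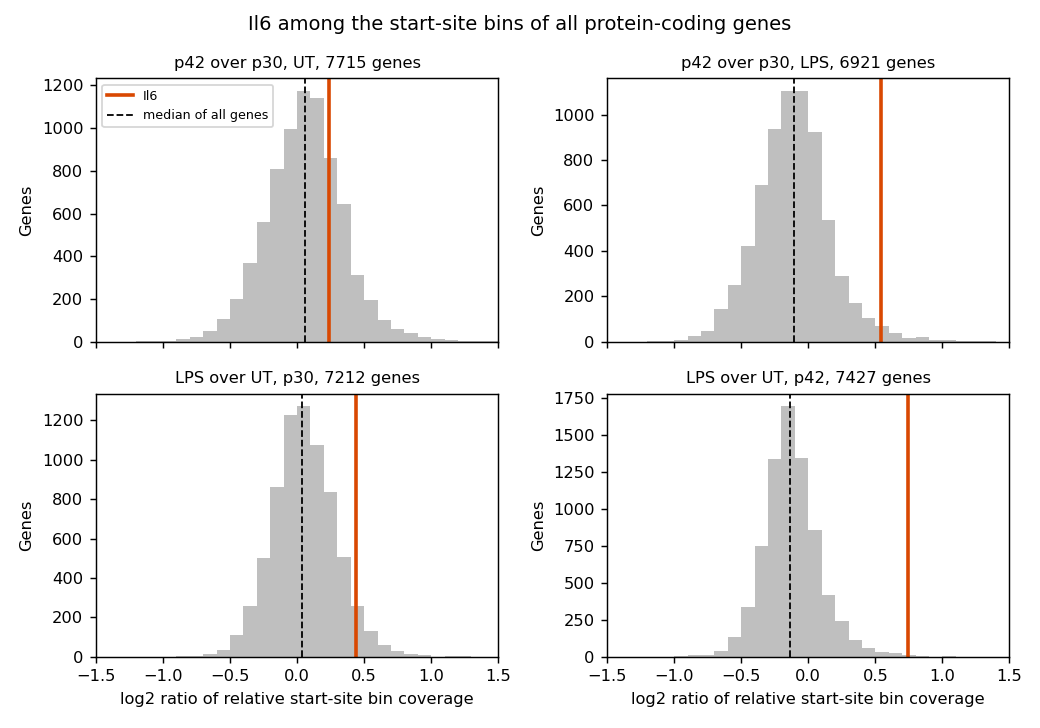
Number of protein-coding genes (vertical axis) by the log2 ratio of relative start-site bin coverage (horizontal axis) in the 4 comparisons, with Il6 as a solid line and the median gene as a dashed line. Il6 lies to the right of the median in each panel, at 0.24, 0.54, 0.44 and 0.74, and farthest into the tail for LPS over UT in p42.

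In the nearest partner stretch, the -65 and -60 kb bins also differed between the isoforms in their own coverage. At -75 kb the p42 over p30 ratio was 1.24-fold untreated and 1.17-fold after LPS. Scaled by modelled contacts, it was 1.42-fold and 0.927-fold there. In the -65 kb bin, relative coverage was 0.814 untreated and 1.41 after LPS in p30, and 1.81 untreated and 2.89 after LPS in p42, with a peak in all lists. It was higher in p42 than in p30 and higher after LPS than untreated, and p42 UT exceeded p30 LPS. The p42 over p30 ratio was 2.22-fold untreated (rank 205 of 44910 bins in both lists) and 2.05-fold after LPS (rank 206 of 39114). LPS over UT was 1.73-fold in p30 and 1.60-fold in p42. Scaled by modelled contacts, the isoform ratios were 2.54-fold and 1.63-fold, while LPS over UT was 1.99-fold in p30 and 1.28-fold in p42, below the threshold. The adjacent -60 kb bin, not in the p30 UT list, was 2.07-fold higher in p42 than in p30 after LPS, with relative coverage of 2.02 and 0.975.

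Other partner bins had other patterns. From UT to LPS, the -75 kb bin went from 0.859 to 1.66 in p30 and from 1.06 to 1.93 in p42, ratios of 1.93-fold and 1.82-fold (2.22-fold and 1.45-fold when scaled by modelled contacts). The -130 kb bin had a ratio of 1.92-fold in p42 and 1.39-fold in p30, and of 1.54-fold and 1.60-fold when scaled by modelled contacts. The -160 kb bin had 1.75-fold higher coverage in p42 than in p30 untreated, 1.46-fold higher after LPS, and relative coverage of 1.61 and 1.62 in the untreated and LPS lists of p42. Scaled by modelled contacts, its p42 over p30 ratio was 2.00-fold untreated and 1.16-fold after LPS. At -170 kb, relative coverage was 1.48, 1.40, 1.58 and 1.67 in list order.

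Counted over all partner bins that both lists held, those past 1.5-fold higher in p42 numbered 2 of 10 untreated and 2 of 13 after LPS, where 4.4% and 3.77% of all listed bins were. Those past 1.5-fold higher after LPS numbered 2 of 10 in p30 and 6 of 14 in p42, where 2.12% and 1.78% of all listed bins were. Bins became partners through the same lists that are compared here. Those at -130, -125 and -75 kb were partners in p42 LPS only, and the -65 kb bin in the LPS lists only. The counts thus describe bins chosen in part by LPS, and were not tested against all listed bins. No partner bin was past 1.5-fold lower in any of the 4 comparisons, where 3.86%, 2.69%, 0.967% and 1.07% of all listed bins were, so that 0 of so few bins is near the background. With scaling by modelled contacts the numbers were 2, 2, 5 and 1 in the same order, where 9.90%, 0.872%, 6.51% and 0.330% of all listed bins were, and 1 of 14 partner bins was past 1.5-fold lower after LPS in p42, where 12.3% of all listed bins were. Median log2 ratios of the partner bins were 0.08, 0.30, 0.35 and 0.43, against -0.05, 0.01, -0.03 and 0.02 over all bins. Scaled by modelled contacts they were 0.28, -0.04, 0.56 and 0.10, against 0.14, -0.33, 0.17 and -0.30 over all bins. On that scale the median for p42 over p30 after LPS changed sign, and the median for LPS over UT was higher in p30 than in p42, the reverse order.

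**Figure D3:**
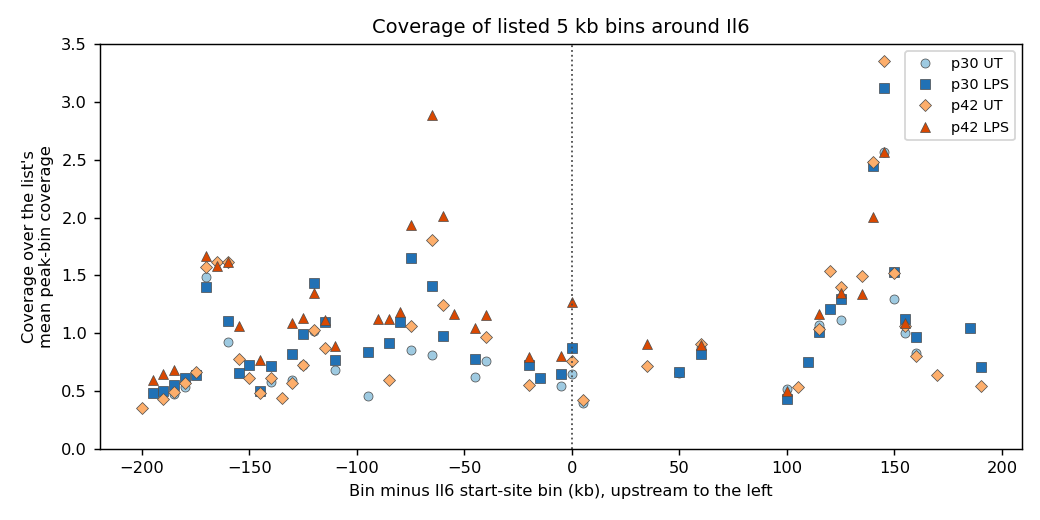
Coverage of each listed 5 kb bin over the mean peak-bin coverage of its list (vertical axis) against its distance from the Il6 start-site bin in kb (horizontal axis), in the 4 lists. The -65 kb bin ranges from 0.814 in p30 UT to 2.89 in p42 LPS, while the bins around the Hadha and Hadhb starts on the right show no such order.

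The -65 kb bin is shown in sequence because its coverage relative to the mean peak bin differed past 2-fold between the isoforms in both treatments. Scaled by modelled contacts, the ratio after LPS was 1.63-fold. The bin holds matches to 4 of the 5 motifs, as do those at -180, -165, -120 and -75 kb. It had 2 matches to TGATGNAA, and 16.8% of the 64985 peak bins of the lists had at least as many. It also had 2 AP-1 matches, a number reached by 44.7% of peak bins, 1 NF-kB match, reached by 38.8%, and 18 C/EBP matches, reached by 14.2%. The -120 and -75 kb bins also had 2 TGATGNAA matches. Their p42 over p30 ratios were 1.005-fold and 1.24-fold untreated, and 0.936-fold and 1.17-fold after LPS. The 4 stretches below lie on the forward strand at chr5:30150249-30150278, chr5:30151335-30151365, chr5:30153371-30153400 and chr5:30153771-30153799 (GRCm39), with the match in capitals.
C/EBP with AP-1 or ATF at -67.9 kb: ttggtatctctTGATGGAAatttggttaag
NF-kB at -66.8 kb: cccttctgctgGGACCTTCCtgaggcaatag
C/EBP with AP-1 or ATF at -64.7 kb: tcttcagtatcTGATGCAAcctagtgtttt
AP-1 at -64.3 kb: tttatctgggtTGACTCAttttctacatc
The -75 kb bin, whose coverage was higher after LPS than untreated in both isoforms, had 2 NF-kB matches, as did the -185, -170 and -120 kb bins, and 9.4% of peak bins had at least as many. The -130, -125 and -60 kb bins, also past 1.5-fold higher after LPS in p42, had 0. At -170 kb the LPS over UT ratio was 0.943-fold in p30 and 1.06-fold in p42. The matches of the -75 kb bin are shown at chr5:30140628-30140658 and chr5:30140898-30140928.
NF-kB at -77.5 kb: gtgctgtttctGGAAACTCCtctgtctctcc
NF-kB at -77.2 kb: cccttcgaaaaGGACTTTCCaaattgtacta
The -170 kb bin had 4 AP-1 matches, a number reached by 7.48% of peak bins, and the -160 and -130 kb bins each had 24 C/EBP matches, a number reached by 1.91%. CRE matches were in none of the 18 partner bins, and 4.02% of peak bins held 1 or more.

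The bins around Il6 that were past 1.5-fold higher after LPS or in p42 all lay upstream of it. Of the upstream bins within 200 kb, 8 of 17 were past 1.5-fold higher after LPS in p42 and 3 of 14 in p30, where 1.78% and 2.12% of all listed bins were. Of the downstream bins, 0 of 8 and 0 of 9 were. The median log2 ratio upstream was 0.52 in p42 and 0.32 in p30, and downstream it was -0.03 and 0.17, against 0.02 and -0.03 over all listed bins. Scaled by modelled contacts, the upstream medians were 0.20 in p42 and 0.53 in p30, the reverse order, and the downstream medians -0.36 and 0.37, against -0.30 and 0.17 over all listed bins. Between isoforms, 4 of 20 upstream bins were past 1.5-fold higher in p42 after LPS and 2 of 11 untreated, against 0 of 7 and 0 of 8 downstream and against 3.77% and 4.4% of all listed bins. Scaled by modelled contacts, 2 of 17 upstream bins were past 1.5-fold higher after LPS in p42, 6 of 14 after LPS in p30, 2 of 20 in p42 over p30 after LPS and 2 of 11 in p42 over p30 untreated, where 0.330%, 6.51%, 0.872% and 9.90% of all listed bins were. On that scale 0 downstream bins were higher. Past 1.5-fold lower were 2 of 8 downstream bins after LPS in p42 and 2 of 7 in p42 over p30 after LPS, where 12.3% and 15.9% of all listed bins and 24.0% and 29.4% of start-site bins were, so that these counts are near the background. Adjacent bins are not independent, and the sides were not tested against each other. The downstream side holds Tyms, which encodes thymidylate synthase, and Hadha and Hadhb, which encode subunits of a mitochondrial enzyme of fatty acid oxidation.

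Loops around Il6 that did not use its start-site bin numbered 18 untreated and 31 after LPS in p30, and 46 untreated and 34 after LPS in p42. Of the 91 distinct pairs, 63 were in 1 list, 20 in 2, 6 in 3 and 2 in all 4. The longest list, p42 UT, held the most, and in lists of equal size the counts were 17, 21, 16 and 34, so that the excess of p42 UT over p30 UT and over p42 LPS was lost. The upstream count in lists of equal size was 10, 13, 8 and 29, and the downstream count was 5, 8, 8 and 5. Loops from 1 side of the gene to the other were rare, with 2 in p30 UT, 1 in p42 UT and 0 in both LPS lists.

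The -65 kb bin was also a centre of these loops. Counting all loops within the window and those to Il6, it took part in 2, 4, 6 and 12 in list order, as many in p42 LPS as the Il6 bin itself. Its 10 kb loop to the -75 kb bin was in all lists, with 39, 81, 79 and 90 contacts against 18.5, 27.3, 32.7 and 41.3 expected. Its loop to the -160 kb bin had 14 contacts untreated and 17 after LPS in p42, and in p30 it was listed after LPS only, with 9. Some partner bins of Il6, such as these, were thus also looped to each other. The -160 kb bin took part in 3, 6, 10 and 6 loops and the -120 kb bin in 2, 5, 6 and 6. The other loop found in all lists lay downstream, from the Hadha start at +145 kb to Hadhb at +155 kb, with 74, 97, 109 and 71 contacts.

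**Figure D4:**
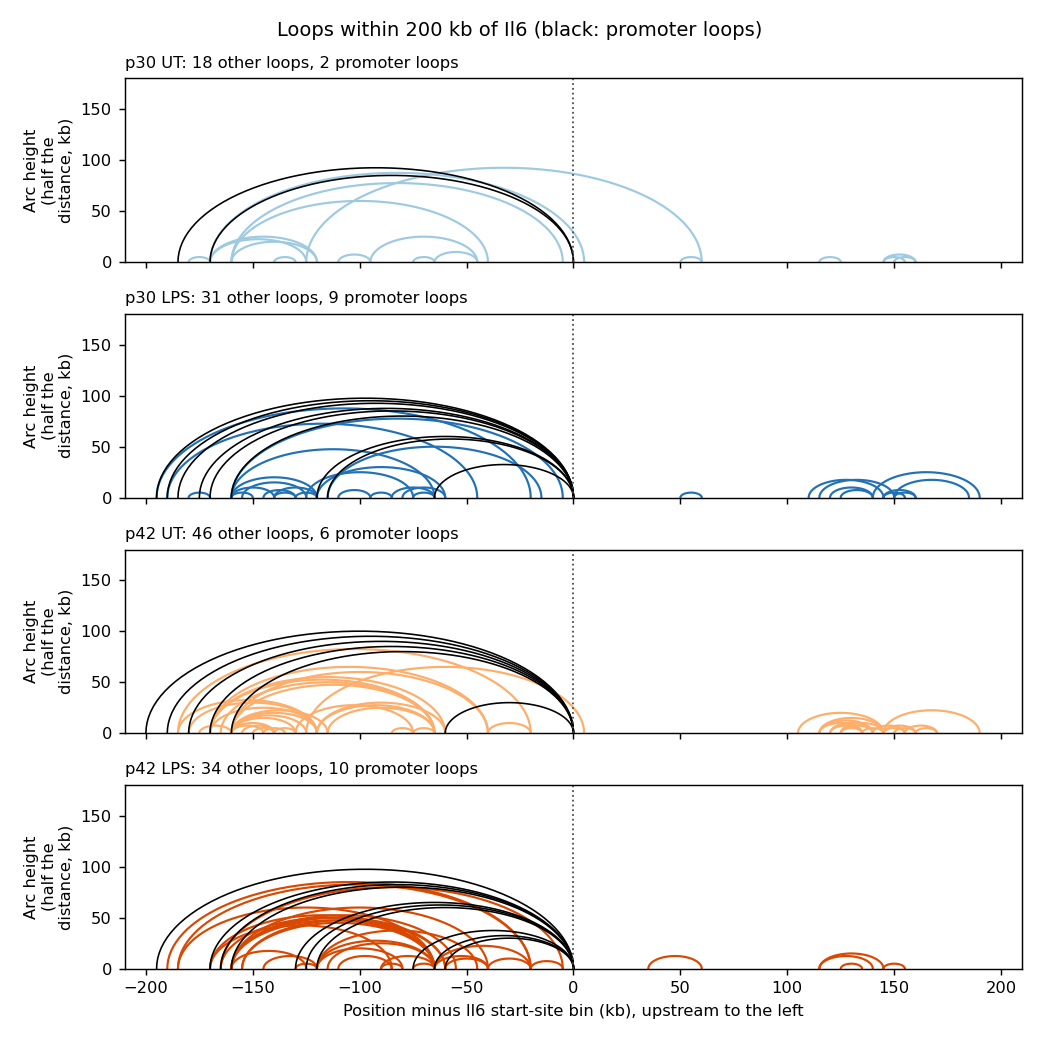
Loops with both bins within 200 kb of the Il6 start-site bin, drawn as arcs between bin positions in kb (horizontal axis), with promoter loops of Il6 in black and other loops in colour. Arc height is proportional to loop distance. Black arcs leave the Il6 bin to the left only, and the 34 other loops of p42 LPS are mostly upstream (29), where 2 further promoter loops beyond 200 kb are not drawn.

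The genes that act with interleukin-6 were followed through a list of 48 ligands, receptors, kinases, inhibitors, targets and regulators, of which 39 or 40 had their start-site bin in both lists of a comparison. After LPS, 10 of 39 were past 1.5-fold higher in p30 and 2 of 40 in p42, where 1.83% and 0.7% of all start-site bins were. Il6 itself was 1 of the 2 in p42. Past 1.5-fold lower were 0 of 39 in p30, where 0.333% of all start-site bins were, and 1 of 40 in p42, where 1.06% were. The median log2 ratio of the list was 0.27 in p30 and 0.05 in p42, against 0.04 and -0.14 over all genes. Scaled by modelled contacts, 16 were past 1.5-fold higher in p30 and 0 in p42. On that scale 8.18% of all start-site bins were past 1.5-fold higher in p30 and 0.0673% in p42.

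Among the receptors, Il6ra, which binds interleukin-6, had 4, 3, 4 and 3 promoter loops and relative coverage of 1.29, 1.15, 1.56 and 1.23. No promoter loop was listed for Il6st (gp130), Il11ra1, Lifr, Osmr or Cntfr in any list, which gives no coverage for them. Of the ligands, Osm, which encodes oncostatin M, was the gene of the list with the largest isoform ratio untreated, at 2.11-fold higher in p42 than in p30. Its relative coverage was 2.25 untreated and 3.51 after LPS in p30, and 4.75 in both p42 lists. The sheddase gene Adam17, whose product releases soluble IL-6 receptor, was 1.55-fold higher in p42 untreated and 1.87-fold higher after LPS in p30. Relative to the median gene, its isoform ratio untreated was not past 1.5-fold.

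In the signalling chain, the JAK family gene Tyk2 was 1.81-fold higher after LPS in p30 and 1.53-fold lower in p42 than in p30 after LPS. The isoform ratio of Tyk2 was not past 1.5-fold relative to the median gene. Stat3, the main effector, was 1.64-fold lower in p42 than in p30 after LPS, with relative coverage of 1.62, 2.45, 1.59 and 1.496 in list order. The feedback inhibitor Cish was higher after LPS in both isoforms, 1.77-fold in p30 and 1.64-fold in p42, and Socs3 was 1.63-fold higher in p30. The repressor gene Bcl6 was 1.73-fold and the NF-kB subunit gene Rel 1.62-fold higher after LPS in p30. Arid5a, whose product stabilises Il6 mRNA, was 1.93-fold lower in p42 than in p30 after LPS and 1.53-fold lower after LPS than untreated in p42. Its relative coverage was 3.01, 4.80, 3.79 and 2.48 in list order. Of the factors that bind the Il6 promoter, Cebpb was 1.51-fold higher in p42 than in p30 after LPS. It was not past 1.5-fold when scaled by modelled contacts. In the comparison of isoforms, 2 of 39 genes were past 1.5-fold higher and 0 lower untreated, where 3.6% of all start-site bins were higher and 1.34% lower. After LPS, 1 of 40 was higher and 3 were lower, where 1.62% of all start-site bins were higher and 3.58% lower. Scaled by modelled contacts, 7 of 39 were higher and 0 lower untreated, where 10.4% and 0.311% of all start-site bins were. On that scale 0 of 40 were higher and 11 lower after LPS, where 0.376% and 29.4% were.

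**Figure D5:**
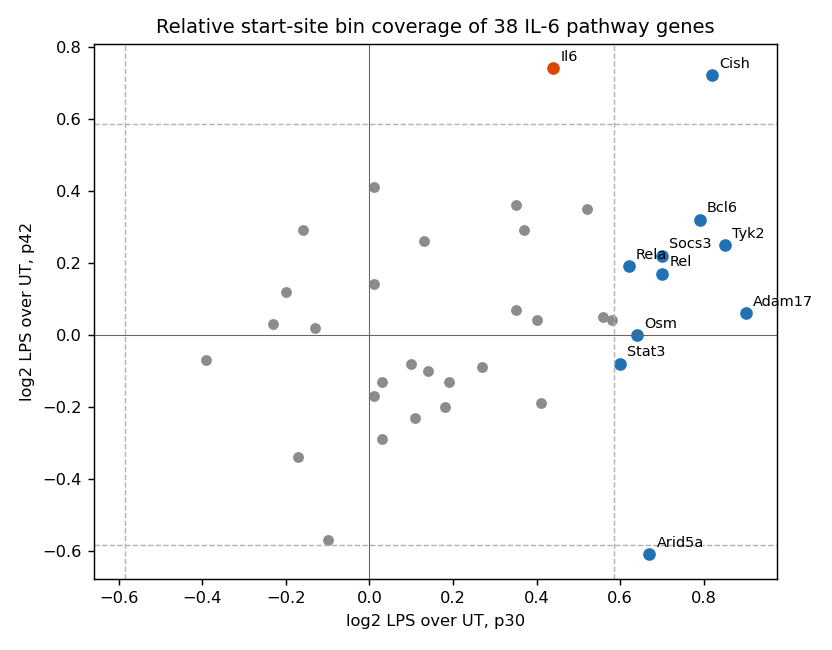
Log2 ratio of relative start-site bin coverage, LPS over UT, in p30 (horizontal axis) and p42 (vertical axis) for the 38 pathway genes with values in both. Dashed lines mark 1.5-fold. Il6 is at 0.44 and 0.74, above the line in p42 only, while Adam17, Tyk2, Bcl6, Socs3, Rel, Rela, Osm and Stat3 are past it in p30 only.

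The genes whose start-site coverage followed the pattern of Il6 most closely over the 4 lists were Slfn10, Wfdc21, Ets2, Trim25 and Pla1a. Likeness was the largest difference from Il6 in log2 relative coverage after each gene's mean over the lists was taken off, and it was 0.04 for Slfn10 and 0.15 for Pla1a among 6338 genes. Ets2, an ETS family transcription factor gene, had relative coverage of 0.848, 1.27, 0.972 and 1.73 in list order. The loop counts of these genes did not share 1 pattern, with 3, 6, 2 and 11 promoter loops for Ets2, 10, 12, 23 and 18 for Wfdc21, 4, 4, 7 and 3 for Trim25 and 5, 8, 5 and 8 for Pla1a. Slfn10 had 1 promoter loop in every list and coverage from 0.562 in p30 UT to 1.10 in p42 LPS. Trim25 encodes a ubiquitin ligase of antiviral signalling, with coverage of 1.52, 1.82, 1.84 and 2.58. These are 4 points per gene, and the likeness is a description.

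The lists rest on 14503330 to 18999991 modelled contacts, with 1939 to 2911 reads in the mean peak bin. All 10 haematopoietic progenitor genes checked, among them Kit, Gata2 and Runx1, had promoter loops in all lists. Genes of neurons and fibroblasts had 0, liver genes had 1 loop (at Apoa1, in p42 UT), and of the 4 B cell and 4 T cell genes at most 2 and 1 had loops in a list. The 3 muscle genes had 2 to 6 loops in all, at start-site bins of which 2 or 3 were listed. Their part in the results was not tested.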

How the data were processed

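H3K27ac HiChIP of 8 libraries was deposited as 4 loop lists, 1 per group of 2 replicates, and how replicates were pooled is not given in the sources used here. According to the methods and the submitters' processing notes, the authors mapped reads to mm39 with BWA 0.7.17 and called loops with FitHiChIP in 5 kb bins at q-values up to 0.01. The authors' contact counts are raw ligation products, and the deposited coverage signal is the number of reads per bin. The expected count deposited for a pair comes from its distance and both bins' coverage, and the deposited coverage bias is a ratio to the mean of the bin's class. Contact probabilities were deposited as a fraction. The p-values and q-values deposited are the caller's binomial ones. Because expected counts follow coverage, a difference in contacts may be corrected away where the mark itself differs. A pair not listed has no deposited contacts.

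Group names were taken from the labels, and 0 columns of other samples were found. Relative coverage is coverage over the list's mean peak-bin coverage, from coverage and bias. Modelled contacts are expected count over probability. Expected counts are an exact function of distance and bias in each list, so for an unlisted pair of listed bins the most contacts it could have had were computed, if that pair was tested. This was chosen after seeing the data. Starts are those of 21770 protein-coding genes of GENCODE M39. Coverage was called past 1.5-fold and loop contacts at an adjusted p of 0.05, in 4 comparisons. Steps were tested on simulated data. Python 3.11.15, numpy 2.4.6, scipy 1.17.1, pandas 2.3.3 and matplotlib 3.10.9 were used.

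Il6, its comparisons and the gene lists were chosen with earlier results of these data known. The genes named are Il6, genes in its partner bins, up to 6 pathway genes with the largest ratio past 1.5-fold per comparison and the 5 genes most like Il6. Other genes, such as Il6ra, Tyms and Hadha, were named after their values were seen. The alternatives were q-values under 0.001, lists of equal size, a wider promoter, merged pairs, other windows and other scalings. One largest p-value for all lists (9.68e-05), sums over loops in both lists, and pathway counts scaled by modelled contacts were added after seeing the data.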

Additional observations from a re-analysis of the deposited data

Results flagged for a closer look

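Around Il6, loops that did not use its start-site bin differed by 13 between LPS and UT in p30 (31 against 18) and by -12 in p42 (34 against 46), so that the isoforms moved in opposite directions. The p42 UT list is also the longest, with 158233 loops, and in lists of equal size the p42 difference was 18. At the -170 kb pair, the promoter loop in all lists as deposited, the log2 ratio of contacts per modelled contact for LPS over UT was -0.15 in p30 and 0.59 in p42. For p42 over p30 it was -0.54 untreated and 0.2 after LPS. These ratios rest on 8 to 11 contacts per list. None of these differences between groups was tested.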

How the results depend on the processing

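Of 76 alternative values, 45 kept the direction and the side of the threshold or stayed within 1.5 times or the counting error. Among them were 5 of 8 for the coverage of the Il6 start-site bin and all 12 for the contacts at the loop in all lists. With 8 to 11 contacts per list the counting error is wide, so these 12 say little about stability. The cause of the others was not tested. Promoter loops: the p42 minus p30 difference untreated (4) was 1 at q under 0.001 and 0 in lists of equal size; after LPS (3) it was 5, 8 and, with 1 largest p-value for all lists, 5. The LPS minus UT difference in p30 (7) was 1, 2 and, with merged pairs, 3, and in p42 (6) it was 10 in lists of equal size and 1 with merged pairs. Other loops: p42 minus p30 untreated (28) reversed to -1 in lists of equal size and to -1 within 100 kb; after LPS (3) it was 13 in lists of equal size. LPS minus UT in p30 (13) was 8 at q under 0.001, 4 in lists of equal size and 1 within 100 kb. In p42 (-12) it reversed to 18 in lists of equal size and to 6 within 100 kb, and was -6 with 1 largest p-value. Start-site coverage, log2: LPS over UT was 0.42 in p42 and 0.65 in p30 scaled by modelled contacts, and p42 over p30 after LPS was 0.66 relative to the median gene. Pathway genes past 1.5-fold: relative to the median gene, 1 higher in p42 untreated, 3 higher after LPS and 0 lower with LPS in p42, where 2.62%, 2.76% and 0.364% of all start-site bins were; scaled by modelled contacts, 7 higher untreated, 0 higher and 11 lower after LPS, 16 higher with LPS in p30, and 0 higher and 4 lower with LPS in p42, where 10.4%, 0.376%, 29.4%, 8.18%, 0.0673% and 24.0% of all start-site bins were. On that scale the order of the Il6 ratios reversed: p42 over p30 was log2 0.44 untreated and 0.21 after LPS. No paired analysis was possible because each list pools the replicates of its group, and for the same reason no replicate could be left out. Few contacts limit the single loops: 8 to 16 per pair.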
